A study of Sus scrofa with 5 samples.

Results

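The inhibitor-treated skin graft was compared between day 90 and day 7 in 13215 cells, 9386 from the day-7 library and 3829 from the day-90 library, out of 28654 in 5 pig libraries. Cells entered when at least 500 genes were detected, and all 14672 genes with a symbol were used, out of 20286 identifiers. Both groups were full-thickness wounds on pigs covered by a split-thickness skin graft, a thin sheet of epidermis and upper dermis, dressed with a hydrogel that releases a focal adhesion kinase (FAK) inhibitor, the group the labels call STSG+FAKI. Per the labels the dressings were changed every other day, and the series describes multiple pigs; for how long the hydrogel was applied is not stated there. The other libraries, used only for reference, were the untreated graft at day 7 (8147 cells) and day 90 (5706 cells) and unwounded skin (1586 cells). Each group was 1 library, so no difference could be set against a spread between replicates and no p-value is given. The labels do not say how many animals stand behind a library, and the day cannot be told apart from the animal or the capture run.

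FAK, encoded by PTK2, is a kinase that integrins activate when a cell binds and pulls on its matrix, and it is known in skin for carrying mechanical signals in wound fibroblasts. A healing graft passes from an inflammatory phase, with leukocytes, chemokines and proteases, through a phase of new vessels and provisional matrix to a long remodelling phase. In that phase collagen is deposited and rearranged, the epidermis stratifies again and dermal fibroblasts take up resting programmes.

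Levels are counts of unique molecular identifiers (UMIs, one per captured RNA molecule) summed over the cells and scaled to a total of 1000000 (CPM). The sums held 78503674 UMIs at day 7 and 50159160 at day 90, with medians of 5669 and 8180 UMIs per cell. The median share of mitochondrial UMIs was 2.95% at day 7 and 4.23% at day 90. Intervals are at 95% and cover counting error only. The day-90 library shared 152 cell barcodes with unwounded skin, 70 with the untreated graft at day 90 and 12 with the day-7 library. Among pairs with both cells clustered, 18 of 50 with unwounded skin lay in the same cluster. With the untreated graft at day 90 it was 24 of 29 pairs, and with the day-7 library 0 of 9. The cause of the sharing was not tested. Without the cells that carried any shared barcode, 710 genes were higher and 389 lower by the rule used below, against 770 and 391 with them. PTK2 itself was at 50.8 CPM at day 7 and 63.7 CPM at day 90, 1.25-fold (95% interval 1.20 to 1.31) higher, and at 51.4 and 46.4 CPM in the untreated graft.

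Cell classes were named from RNA markers and are called fibroblast-like and so on. Endothelial-like cells made up 14.7% of 8653 clustered cells at day 7 and 36.6% of 3693 at day 90. T or NK-like cells went from 17.5% (1514 cells) to 1.44% (53 cells), and myeloid-like cells from 6.45% to 1.87%. Unnamed cells were at 6.17% and 0.948%. They included a cluster of 384 day-7 and 23 day-90 cells with CD247, ZAP70, CD3E and IL7R among its leading genes. Its marker score or count was too low for a name, so the T or NK-like share leaves these cells out. B or plasma-like cells numbered 75 at day 7 and 0 among the 3693 later cells, where 3 cells would make 0.0812%. Fibroblast-like cells were at 16.3% and 21.4%, keratinocyte-like cells at 4.13% and 1.76%, and lymphatic endothelial-like cells at 0.705% and 1.81%. Mast-like cells, at 4.11% and 4.79%, and pericyte or smooth muscle-like cells, at 28.8% and 27.8%, had overlapping counting intervals. Glandular epithelial-like cells were found at day 90 (24 cells, 0.650%) and not among the day-7 cells, where 3 cells would make 0.0347%. How tissue dissociation and capture set these shares was not tested.

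**Figure D1:**
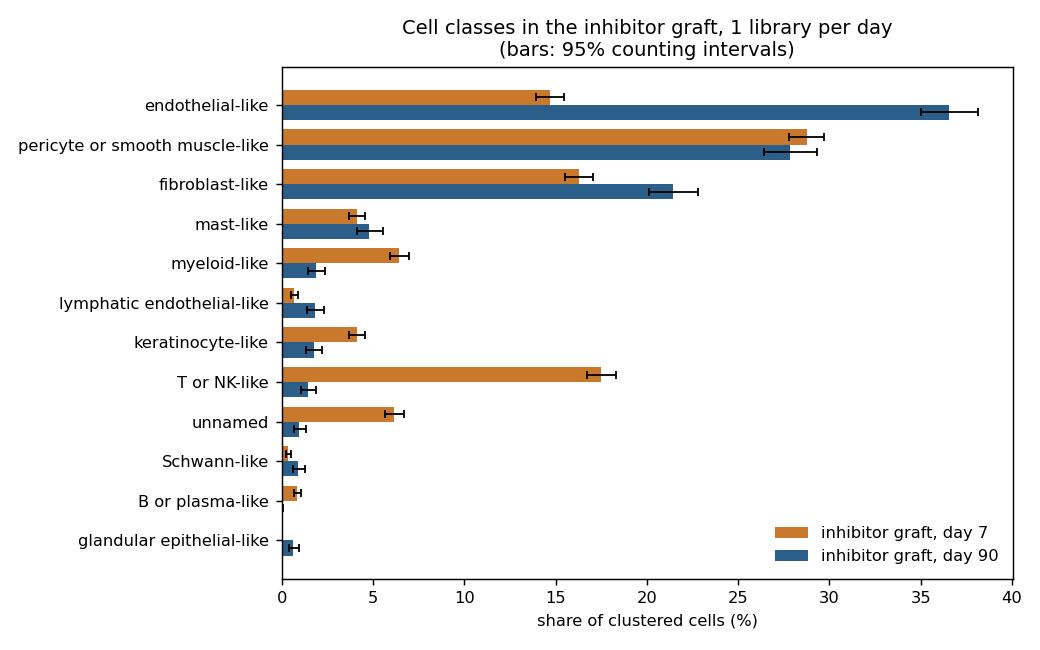
Share of clustered cells (%) in each cell class of the inhibitor graft at day 7 (orange) and day 90 (blue), 1 library per day, with exact 95% counting intervals as error bars. Endothelial-like cells stand at 14.7% and 36.6%, and those of T or NK type at 17.5% and 1.44%.

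Side by side, the untreated graft had endothelial-like shares of 21.4% and 24.2%, fibroblast-like shares of 18.6% and 38.9%, and T or NK-like shares of 9.34% and 2.47%. Its keratinocyte-like cells were at 6.23% and 0.520%. Unwounded skin had 42.2% endothelial-like, 16.8% fibroblast-like, 8.95% keratinocyte-like and 1.30% T or NK-like cells. With doublets kept, the pericyte or smooth muscle-like share was higher at day 90 (log2 ratio 0.35), and with at least 1000 genes per cell it was lower (-0.30). The latter filter also put the mast-like share lower at day 90 (-1.005).

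In the whole-library sums, 6969 genes reached a mean of 10 CPM over both days. By a rule of size, not a test, 770 genes (11.0%) were at least 2-fold higher at day 90 and 391 (5.61%) at least 2-fold lower, together 16.7%. The scaling moved this split. The median log2 ratio of all tested genes was 0.12, and TMM scaling, which lowered every log2 ratio by 0.21, gave 527 higher and 651 lower genes, so that 44.7% of the calls were higher against 66.3%. In these sums fewer cells of a type and less RNA per cell cannot be told apart. With each shared class given the same weight, 375 of the 770 higher genes and 180 of the 391 lower genes stayed past 2-fold, and 29 and 41 turned to the other side.

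The leading higher genes at day 90 included matrix and vessel genes. PI16, a marker of resting adventitial-type fibroblasts, was at 30.9 CPM at day 7 and 456 CPM at day 90, 14.8-fold (95% interval 14.2 to 15.4) higher. LTBP4, a binding protein for latent TGF-beta and elastic fibres, was at 18.4 CPM at day 7 and 188 CPM at day 90, a 10.2-fold gain. COL14A1, a fibril-associated collagen, went from 98.7 to 601 CPM, and MFAP5, a microfibril protein, from 34.8 to 227 CPM. CD93, an endothelial surface glycoprotein, was at 92.6 CPM at day 7 and 546 CPM at day 90, and CXCL12, a chemokine made by stroma and endothelium, at 54.5 CPM at day 7 and 371 CPM at day 90. COL8A1, COL11A1, ITGBL1, CPZ, CCDC80, CHP2 and LSMEM1 completed the leading genes, between 6.08-fold (COL11A1) and 10.4-fold (CHP2) higher.

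SCGB1D1 and PHEROC, also among the leaders, came from few cells. SCGB1D1, a secretoglobin of glands, had 1 UMI at day 7 and 6401 at day 90, and 99.5% of the day-90 UMIs assigned to a class lay in the 24 glandular epithelial-like cells. PHEROC, the C subunit of the porcine steroid-binding protein pheromaxein, had 116 and 7487 UMIs, with 99.5% of those assigned to a class at day 90 in the same cells.

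The leading lower genes included interferon-induced chemokines, neutrophil and myeloid alarmins, lymphocyte genes and proteases. CXCL10, which attracts activated T cells, was at 4362 CPM at day 7 and 111 CPM at day 90, 39.3-fold (95% interval 38.2 to 40.3) lower. CXCL11 was at 141 CPM at day 7 and 0.459 CPM at day 90, 307-fold lower. CXCL8, a neutrophil chemoattractant, went from 497 to 20.6 CPM, and AMCF-II, a porcine CXC chemokine, from 177 to 6.08 CPM. S100A8 and S100A12, calcium-binding alarmins of myeloid cells, were 34.3-fold and 20.0-fold lower, and S100A2, an epidermal relative, 13.5-fold.

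The stromelysin MMP3 went from 142 to 1.83 CPM. ARG1, which consumes arginine in activated myeloid cells, was at 119 CPM at day 7 and 0.399 CPM at day 90. The cytotoxic granule gene GNLY and the T cell chemokine CCL5 were 23.5-fold and 18.5-fold lower, in libraries where the T or NK-like share was 17.5% and 1.44%. JCHAIN, the joining chain of secreted antibodies, was 97.1-fold lower, and 97.1% of its day-7 UMIs assigned to a class lay in the 75 B or plasma-like cells. IL11, a cytokine of injured stroma, was at 108 CPM at day 7 and 2.31 CPM at day 90, and HPS5 at 814 CPM at day 7 and 7.36 CPM at day 90. Which annotation assigns the symbol HPS5 is not stated in the labels or files. AREG, an epidermal growth factor receptor ligand, was 30.4-fold lower.

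**Figure D2:**
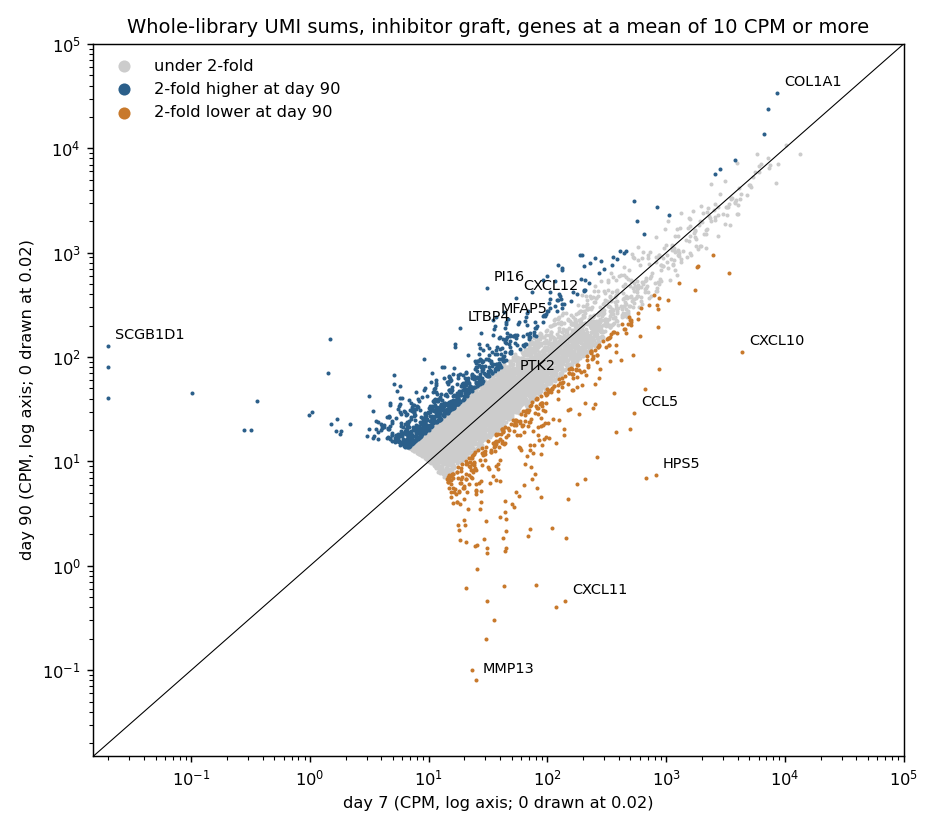
Each point is 1 of 6969 genes at a mean of at least 10 CPM, with its whole-library level in the inhibitor graft at day 7 (x) and day 90 (y) on log axes. The line marks equal levels, blue points are the 770 genes at least 2-fold higher at day 90 and orange points the 391 at least 2-fold lower. CXCL10 lies at 4362 CPM at day 7 and 111 CPM at day 90, and PI16 at 30.9 and 456 CPM.

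The untreated graft gave fewer calls by the same rule, 274 higher (3.95%) and 307 lower (4.42%) of 6940 genes, together 8.37%. Of 685 genes higher in the inhibitor graft and tested in both grafts, 141 were also higher, 5 lower and 539 within 2-fold in the untreated graft. Of 367 lower genes, 166 were also lower, 6 higher and 195 within 2-fold. The difference between the grafts was not tested.

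The list counts below stand beside the shares over all 6969 tested genes, 11.0% higher and 5.61% lower. Among the fibrillar collagens, the structural proteins of dermal fibres, 4 of 7 were at least 2-fold higher and none lower, with a median log2 ratio of 1.03. COL1A1 was at 8581 CPM at day 7 and 33902 CPM at day 90 and COL3A1 at 6725 CPM at day 7 and 13779 CPM at day 90. Small proteoglycans and elastic fibre genes were higher for 8 of 14 (median 1.25), with FBLN1, a fibulin, from 13.02 to 80.6 CPM and OGN, the proteoglycan osteoglycin, from 27.0 to 93.8 CPM. Genes of unwounded dermal fibroblasts were higher for 10 of 14 (median 1.52), with SFRP4, a Wnt antagonist, from 45.2 to 215 CPM.

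Cartilage and tendon matrix genes were higher for all 6 that passed the level filter, of 14 measured (median 2.21). ACAN, the large proteoglycan of cartilage, was at 0.981 CPM at day 7 and 27.6 CPM at day 90, and TNMD, a tendon glycoprotein, at 4.52 CPM at day 7 and 20.9 CPM at day 90. In the untreated graft the same 6 genes had a median of 4.03, with ACAN at 0.625 and 74.4 CPM. Genes of provisional wound matrix and crosslinking had 1 member higher and 2 lower of 19. SPARC, a collagen-binding matricellular protein, was the higher one, from 2575 to 5699 CPM, while SPP1 (osteopontin) and PLOD2 (a lysyl hydroxylase) were 5.33-fold and 3.06-fold lower.

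Of 17 matrix proteases and inhibitors, 6 were lower and 2 higher. MMP9, a gelatinase, went from 68.0 to 1.91 CPM, and the collagenase MMP13 from 24.9 to 0.0797 CPM. TIMP1, a metalloproteinase inhibitor, was 5.27-fold lower, while TIMP3, the inhibitor bound to matrix, was 3.45-fold higher. YAP/TAZ targets, read as mechanical response genes, were higher for 4 of 12 and lower for 1, with CCN2 from 99.9 to 279 CPM and F3 from 97.3 to 43.0 CPM. Of 16 focal adhesion and integrin genes, 2 were higher and none lower, with the adaptor TNS1 3.04-fold higher. That count is near the share over all genes, 11.0% higher. The TGF-beta and activin list had 3 of 18 higher and 2 lower, TGFBR3 from 33.9 to 113 CPM and the BMP antagonist GREM1 from 28.2 to 9.21 CPM.

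Chemokines and inflammatory cytokines were lower for 14 of 22 and higher for 2, CXCL12 and CCL21 (median -1.98). Interferon response genes were lower for 9 of 24 and higher for 0 (median -0.56), with CXCL9 from 865 to 76.3 CPM and IDO1, a tryptophan-degrading enzyme, from 29.0 to 1.81 CPM. T and NK cell genes were lower for 11 of 14 (median -4.34), with GZMA, a granule protease, from 79.6 to 0.658 CPM and IL7R, the interleukin-7 receptor, from 43.3 to 0.638 CPM. Macrophage genes were lower for 7 of 21 and higher for 1, the complement subunit C1QA, at 20.4 CPM at day 7 and 48.0 CPM at day 90.

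Pan-endothelial genes were higher for 12 of 13 (median 1.79, untreated 0.43), with VWF, the platelet-binding protein of endothelium, from 73.9 to 418 CPM and the tight junction gene CLDN5 from 116 to 531 CPM. Basal and wound keratinocyte genes were lower for 5 of 10 and higher for 2 (median -0.98, untreated -3.36), with KRT5 from 1759.9 to 434 CPM. The higher members were KRT15 and LAMA3, whose log2 ratio was 1.10 against -0.17 under equal class weights. Differentiated keratinocyte genes were higher for 2 of 6 (median 0.33, untreated -3.87), with KRT10, a suprabasal keratin, from 121 to 356 CPM and KRT1, its partner, from 49.6 to 115 CPM. In the untreated graft KRT10 was at 252 and 52.0 CPM in the whole library, and at 2059 and 3651 CPM within keratinocyte-like cells. Without cells of shared barcodes the log2 ratios in the inhibitor graft were 1.41 for KRT10 and 1.13 for KRT1, and 0.64 against 1.41 for KRT15.

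Angiogenic endothelial genes were higher for 6 of 14 and lower for 1 (median 0.49, untreated -0.18). DLL4, the Notch ligand of sprouting vessels, was 4.60-fold higher and PLVAP, a diaphragm protein of fenestrae, went from 281 to 841 CPM, while the chemokine receptor CXCR4 went from 133 to 62.4 CPM. With each shared class given the same weight, KDR (log2 ratio -0.20), APLN (-0.13), CXCR4 (1.23) and the prostaglandin synthase gene PTGS2 (0.24 against -1.39) had the other sign. Of 10 endothelial activation genes ACKR1, a chemokine-binding receptor of venules, was higher (4.49-fold), and CSF3 and PTGS2 were lower. Pericyte genes were lower for 3 of 14, CA4 (6.55-fold), HIGD1B and ABCC9, and contractile genes were higher for RERGL and SMTN and lower for ACTG2 and CNN1. Of the lymphatic genes that passed, CCL21, which guides dendritic cells into lymphatics, was higher, from 7.58 to 34.8 CPM, and MMRN1 was within 2-fold.

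Other immune lists had few members at 10 CPM. Neutrophil genes were lower for 2 of 3 that passed, of 9 measured, and dendritic cell genes for 3 of 4, of 10 measured. BATF3, a transcription factor of dendritic cells, went from 23.2 to 6.98 CPM. Of 5 mast cell genes that passed, HDC, the histamine-forming enzyme, was 3.81-fold lower and MS4A2 and FCER1A were also lower, while GATA2 was higher. The sign of FCER1A turned with equal class weights (log2 ratio 0.11 against -1.19) and by the mean of single-cell CPM (0.37), and the list median was 0.61 by the latter and 0.11 by the former, against -1.19. Of 4 B and plasma cell genes JCHAIN and MZB1 were lower. Of 8 antigen presentation genes PSMB9, an immunoproteasome subunit, was lower (2.51-fold). Of 6 acute phase and complement genes C4A and C4BPA were higher, C4A from 15.6 to 48.5 CPM. HBB, the one erythroid gene that passed, was at 97.3 and 17.0 CPM.

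Collagens outside the fibrillar group were higher for 4 of 9 (median 0.78), including COL15A1, a basement membrane zone collagen, from 106 to 297 CPM. Wnt and BMP modulators were higher for 4 of 11 and lower for 3. BMP4, a morphogen of dermal stroma, went from 11.4 to 37.5 CPM and the Wnt antagonist DKK2 from 8.70 to 23.8 CPM, while WNT5A went from 58.7 to 17.7 CPM and SFRP1 from 87.5 to 35.9 CPM. In the IGF system 3 of 9 were higher and 1 lower. IGFBP5, an IGF-binding protein, went from 125 to 399 CPM, IGF1R, the receptor, from 7.11 to 17.0 CPM, and IGFBP4 from 235 to 113 CPM. Cell cycle genes were lower for 2 of 11, UBE2C and BIRC5, and 1 of 9 heat shock genes, HSPE1, was lower. PPARG, the adipocyte regulator, was 2.96-fold higher, 1 of 4 adipocyte genes. KRT7 of the glandular list was 3.22-fold higher, with a log2 ratio of 1.69 against -0.42 under equal class weights, and DES, the one skeletal muscle gene that passed, was within 2-fold.

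**Figure D3:**
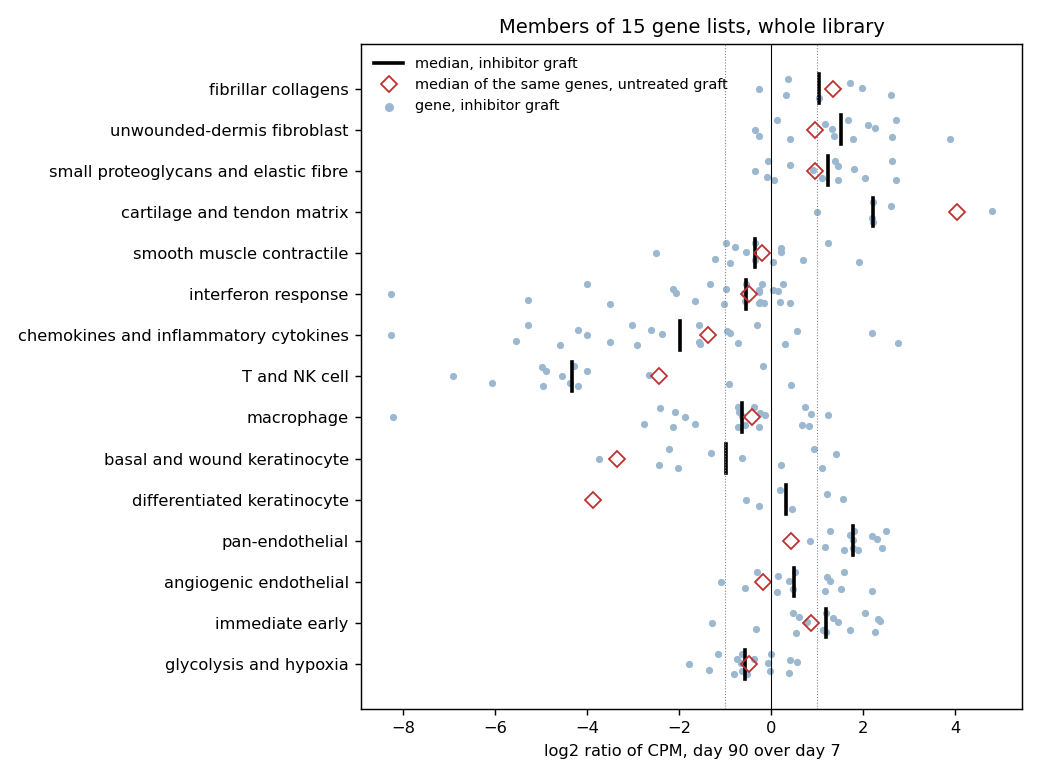
Whole-library log2 ratio of CPM, day 90 over day 7, for the members of 15 gene lists that reached 10 CPM (points) with the list median (black bar), and the median of the same genes in the untreated graft (open red diamond). Dotted lines mark 2-fold. T and NK cell genes have a median of -4.34 and pan-endothelial genes 1.79.

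Within classes, genes were compared at a mean of at least 50 CPM. Of 1943 genes in fibroblast-like cells (1409 at day 7, 791 at day 90), 120 (6.18%) were higher and 275 (14.2%) lower at day 90, together 20.3%. Different clusters held the class on the 2 days. At day 7, 48.2% of the cells lay in a cluster led by IL11 and HPS5 and 45.4% in one led by GREM1 and F13A1, while 72.7% of the day-90 cells lay in a cluster led by FBLN1 and C4A.

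COL1A1 in these cells went from 27359 to 112723 CPM and COL3A1 from 19449 to 44575 CPM, against 120550 CPM and 53795 CPM in unwounded skin. PI16 was at 109 and 1541 CPM, 14.1-fold (95% interval 13.5 to 14.7) higher. A PI16 UMI was found in 30.6% of fibroblast-like cells at day 7 (median 12958 UMIs) and 82.2% at day 90 (median 16109). In mast-like cells, which should lack it, the shares were 0 of 356 and 2.26% (medians 3723.5 and 1832). CLEC3B (tetranectin), a plasminogen-binding protein of resting dermis, went from 92.4 to 1015 CPM, and CCDC80, a matrix-associated protein, from 241 to 2477 CPM. PLXDC1, SPOCK1, COL8A1, ABI3BP and NIBAN1 were 8.34-fold (NIBAN1) to 15.8-fold (PLXDC1) higher. The YAP/TAZ target CCN2 was 5.66-fold higher, from 114 to 645 CPM.

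HPS5 in fibroblast-like cells went from 2420.1 to 8.65 CPM, 279.7-fold (95% interval 234 to 337) lower, and IL11 from 368 to 3.66 CPM. MMP3 was 59.7-fold and AMCF-II 31.0-fold lower. SERPINE2, a protease inhibitor, was 15.2-fold lower, and the interferon-induced BST2 10.5-fold. Among Wnt and BMP modulators WNT5A went from 205 to 56.7 CPM and SFRP2 from 1290.4 to 2969 CPM. Interferon response genes were lower for 5 of 6. Chemokines and cytokines were lower for 6 of 9, including CXCL8 from 517 to 6.68 CPM, and higher for 1, CXCL12 from 98.4 to 319.8 CPM, whose log2 ratio was -0.02 against 1.70 in clusters of both days.

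In the same cells, small proteoglycan and elastic fibre genes were higher for 7 of 13 (median 1.08) and endothelial activation genes, which include stromal cytokines, were lower for 4 of 7. Glycolysis and hypoxia genes were lower for 5 of 8 (median -1.02, untreated -0.18), and heat shock genes for 3 of 9. The median of all 1943 genes was -0.36, which stands beside each of these medians. No focal adhesion or integrin gene passed 2-fold among 11.

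Cells of the same cluster on both days gave smaller differences for part of these genes. With the FBLN1-led and GREM1-led clusters given equal weight, the log2 ratio of COL1A1 was 1.68 against 2.04, of PI16 2.58 against 3.82, and of IL11 -1.22 against -6.65. The unwounded-dermis list had a median of 0.03 against 2.31, and the cartilage and tendon list -1.17 against 2.09. These clusters held 42 cells at day 7 and 22 cells at day 90 on their thinner sides.

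Of 2309 genes in pericyte or smooth muscle-like cells (2488 and 1028 cells), 230 (9.96%) were higher and 165 (7.15%) lower, together 17.1%. At day 7, 48.4% lay in a CA4-led cluster, and at day 90, 42.4% in one led by ITIH4 and MYH11. CXCL10 went from 8122 to 276 CPM, 29.5-fold (95% interval 28.2 to 30.8) lower, and the prostaglandin E synthase gene PTGES from 128 to 3.38 CPM. CXCL12 was 9.50-fold higher, and RERGL, a marker of contractile smooth muscle, went from 50.6 to 360.1 CPM.

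The contractile list was higher for 3 of 14 (RERGL, LMOD1 and SMTN) and lower for ACTG2 alone, from 711 to 203 CPM. ACTA2, the smooth muscle actin, was at 6796 and 5827 CPM, within 2-fold. In whole-library sums ACTA2 was 1.97-fold lower, just inside the rule. CXCL9 was 7.52-fold and TIMP1 6.79-fold lower, while NAALAD2, CRISPLD1 and LSMEM1 were 10.3-fold to 10.6-fold higher.

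Interferon genes in pericyte or smooth muscle-like cells were lower for 6 of 12 and chemokines for 5 of 10, with 1 higher. CA4, a membrane carbonic anhydrase that marked the leading day-7 cluster, went from 476 to 60.6 CPM, and TGM2, a transglutaminase, from 148 to 22.2 CPM. PMAIP1, a pro-apoptotic BH3 protein, was 5.76-fold lower. Fibrillar collagens had no member past 2-fold of 6 (median -0.65), and the YAP/TAZ targets had 3 of 10 higher. RSRP1 was 7.00-fold and the mitochondrially encoded ND3 6.72-fold higher.

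Of 2436 genes in endothelial-like cells (1270 and 1350 cells), 97 (3.98%) were higher and 131 (5.38%) lower, together 9.36%. None of the 13 pan-endothelial genes passed 2-fold within the class, against 12 in the whole library. At day 7, 50.7% of the cells lay in a cluster led by BDKRB2 and CXCL9, which held 0.519% at day 90, when the largest was led by ACKR1 (36.1%). CXCL11 went from 488 to 0.687 CPM, CXCL10 from 5813 to 124 CPM and CXCL9 from 2709 to 75.5 CPM, 35.9-fold (95% interval 34.2 to 37.8) lower.

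Not all interferon genes were lower in these cells. IFI6 was at 2300.5 and 2439.5 CPM, MX1 at 109 and 140.5 CPM and RSAD2 at 58.0 and 81.0 CPM, all within 2-fold, and 7 of 18 list members were lower. The colony-stimulating factors CSF2 and CSF3 were 35.8-fold and 7.66-fold lower. ACE, the angiotensin-converting enzyme of capillary endothelium, went from 12.9 to 93.3 CPM, and LTBP4 and CXCL12 were 6.14-fold and 4.24-fold higher. Of 11 angiogenic genes, ESM1 and INSR were lower, and KDR, the main VEGF receptor, was within 2-fold at 168 and 134 CPM.

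UBD, a ubiquitin-like modifier induced by cytokines, went from 138 to 8.43 CPM in endothelial-like cells. ISG20, an exonuclease induced by interferon, went from 94.6 to 9.03 CPM, and WARS, a tRNA synthetase also induced by interferon gamma, from 206 to 24.8 CPM. Chemokines and cytokines were lower for 8 of 15 and higher for 2. ADIRF and FMO1, a flavin monooxygenase, were 5.82-fold and 4.29-fold higher. In the untreated graft CXCL9 in this class went from 352 to 72.4 CPM and ACE from 18.3 to 59.7 CPM.

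Of 2424 genes in lymphatic endothelial-like cells (61 and 67 cells), 178 (7.34%) were higher and 245 (10.1%) lower, together 17.5%. All 12 interferon genes that passed were lower (median -2.04), with ISG15, a ubiquitin-like modifier, from 940.2 to 185 CPM. ECRG4, a secreted neuropeptide-like protein, had 0 UMIs at day 7 and 810 at day 90, 225-fold higher against a floor of 3 UMIs. The untreated graft had it at 382 and 1029.5 CPM.

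RAMP3, a receptor partner for adrenomedullin, went from 10.7 to 178 CPM in lymphatic endothelial-like cells and CCDC3 from 17.9 to 298 CPM. CSF2 had 123 UMIs at day 7 and 0 at day 90, 49.2-fold lower against the floor of 3 UMIs. F3, the tissue factor that starts coagulation, went from 301 to 10.4 CPM and SOD2, a mitochondrial superoxide dismutase, from 1504 to 137 CPM. Of 8 chemokines 6 were lower and 1 higher. With doublets kept the fibrillar collagens had a median of -1.46 against 1.35, so no direction is given for them.

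Of 2010 genes in keratinocyte-like cells (357 and 65 cells, all in 1 cluster), 155 (7.71%) were higher and 359 (17.9%) lower, together 25.6%. Differentiated keratinocyte genes were higher for 9 of 10 (median 2.87). KRT10 went from 893 to 11655 CPM, KRT1 from 627 to 4252 CPM and CALML5, a calmodulin-like protein of stratifying epidermis, from 7.51 to 431 CPM, 57.4-fold (95% interval 42.4 to 79.6) higher. Unwounded keratinocyte-like cells had KRT10 at 6812 CPM and CALML5 at 351 CPM. KRT2, a keratin of the upper epidermis, had 2 UMIs at day 7 and 224 at day 90. The metallothionein MT4 had 0 and 561, 830.5-fold higher against the floor of 3 UMIs.

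Basal and wound genes were lower for 7 of 12 and higher for 1. LAMA3 and LAMB3, laminin chains that anchor basal cells, were 4.40-fold and 3.31-fold lower, and KRT5 was within 2-fold at 21415 and 15800 CPM. KRT15, a keratin of resting basal cells, went from 144 to 1224 CPM. All 13 interferon genes were lower (median -3.74), with IFI6 from 1664 to 11.1 CPM. CXCL10 had 15922 UMIs and 0, 1195-fold lower against the floor of 3 UMIs. Untreated keratinocyte-like cells had it at 511 and 0 CPM, with 28 cells at day 90.

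DSC1, a desmosomal cadherin of the upper epidermis, went from 15.8 to 224 CPM in keratinocyte-like cells, and DMKN (dermokine) from 24.5 to 367 CPM. HSD17B2, a steroid dehydrogenase, had 0 UMIs at day 7 and 210 at day 90, 311-fold higher against the floor of 3 UMIs. MMP13 had 999 UMIs at day 7 and 0 at day 90, 75.0-fold lower against the floor of 3 UMIs. MMP3 went from 908 to 23.7 CPM. CXCL11 had 2476 UMIs at day 7 and 2 at day 90, and AGR2, a secretory disulfide isomerase, 717 UMIs at day 7 and 1 at day 90. Of 6 TGF-beta and activin genes 4 were lower and 1, the BMP target ID1, was higher, from 249 to 508 CPM. All 5 antigen presentation genes that passed were lower (median -1.92). The median of all 2010 genes in this class was -0.28.

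Of 1951 genes in myeloid-like cells (558 and 69 cells, 1 cluster), 186 (9.53%) were higher and 171 (8.76%) lower, together 18.3%. The C1q subunits C1QA, C1QB and C1QC were 7.65-fold, 5.26-fold and 5.93-fold higher, C1QA from 369 to 2828 CPM. FOLR2, a folate receptor of resident macrophages, went from 11.7 to 348 CPM, 29.8-fold (95% interval 21.7 to 41.9) higher, and STAB1, a scavenger receptor, from 87.6 to 383 CPM. All 5 acute phase and complement genes that passed were higher. CCL2, a monocyte chemoattractant, was 5.37-fold higher, from 1171 to 6286 CPM, while 11 of 17 chemokines and cytokines were lower.

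ARG1 in these cells went from 1644 to 18.8 CPM, 87.4-fold (95% interval 52.0 to 159.9) lower, and in the untreated graft from 543 to 644 CPM. CXCL10 went from 9920.4 to 156 CPM, CSF3 from 459 to 5.38 CPM and ACOD1, the itaconate-producing enzyme of activated macrophages, from 645 to 18.8 CPM. SPP1 was 2.40-fold lower. Macrophage genes as a list were higher for 7 of 23 and lower for 2.

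DNASE1L3, a nuclease of tissue macrophages, went from 14.0 to 343 CPM in myeloid-like cells and C4BPA, a complement regulator, from 499.8 to 3759 CPM. MMP12, the macrophage elastase, had 726 UMIs at day 7 and 2 at day 90, and TNIP3, an inhibitor of NF-kappaB signalling, went from 405 to 6.72 CPM. All 4 neutrophil genes that passed were lower (median -2.01), and interferon genes were lower for 12 of 17. With the inhibitor libraries clustered alone, an unnamed cluster led by TREM1 and G0S2 held 105 day-7 and 0 day-90 cells. CSF3R and CXCL8 were among its leading genes. The myeloid-like class then had 472 day-7 cells, and the part of such cells in these values was not tested. HPS5 went from 2202 to 30.9 CPM here, against 2420.1 to 8.65 CPM in fibroblast-like cells, and the part of free RNA was not tested.

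Of 2075 genes in T or NK-like cells, 205 (9.88%) were higher and 186 (8.96%) lower, together 18.8%, on 53 cells and 122650 UMIs at day 90. Of 25 T and NK cell genes 8 were lower and 1, CD4, higher. GZMA went from 1546 to 245 CPM and IL7R from 547 to 97.8 CPM, while the receptor chain CD3E was at 1261 and 962 CPM, within 2-fold. KLRB1 had 524 UMIs at day 7 and 0 at day 90, 6.07-fold lower against the floor of 3 UMIs. A cluster led by GNLY and GZMH held 60.4% of the class at day 7 and 37.7% at day 90, the rest being led by TNFRSF4 and CCR4.

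CDKN1C, a cyclin-dependent kinase inhibitor, went from 14.4 to 147 CPM in T or NK-like cells, TMEM88 from 9.63 to 139 CPM and TNFSF9, a costimulatory ligand, from 46.5 to 277 CPM. UBD had 1340 UMIs at day 7 and 2 at day 90. The cytokine gene IL17F had 509 UMIs at day 7 and 0 at day 90, 5.89-fold lower against the floor of 3 UMIs. Immediate early genes were higher for 11 of 13 that passed and interferon genes lower for 6 of 16.

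Of 2342 genes in mast-like cells (356 and 177 cells), 306 (13.1%) were higher and 153 (6.53%) lower, together 19.6%. KIT, the stem cell factor receptor, went from 759 to 1759 CPM and GATA2, a mast cell transcription factor, from 621 to 1674 CPM. MS4A2, a chain of the IgE receptor, was at 7652 and 5981 CPM, within 2-fold. The chemokine CCL1 went from 569 to 36.3 CPM, and BCL2A1, a survival gene, from 761 to 75.3 CPM. Their median depth was 3723.5 UMIs at day 7 and 1832 at day 90.

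CYP39A1, an oxysterol hydroxylase, had 4 UMIs at day 7 and 87 at day 90 in mast-like cells, 86.5-fold (95% interval 32.6 to 324) higher. FSCN1, an actin-bundling protein, went from 18.9 to 244 CPM. LGALS13 had 289 UMIs at day 7 and 0 at day 90, 24.2-fold lower against the floor of 3 UMIs (95% interval from 19.6). PIM1, a survival kinase, went from 242 to 28.5 CPM. Of 7 mast cell genes 2 were higher and none lower within the class, against 3 lower in the whole library.

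CXCL10 was lower at day 90 in each of the 8 classes, and its day-7 level differed between them. Myeloid-like cells had it at 9920.4 CPM, pericyte or smooth muscle-like cells at 8122, mast-like cells at 58.8 and lymphatic endothelial-like cells at 30.4. Mast-like and lymphatic endothelial-like cells had 0 CPM at day 90 and lay under the class floor, a mean of 50 CPM. The part of free RNA in them was not tested. A CXCL10 UMI was found in 62.9% of pericyte or smooth muscle-like cells at day 7 (median 6779 UMIs) and in 16.6% of mast-like cells (median 3723.5). At day 90 the shares were 12.9% (median 5634.5) and 0 of 177 mast-like cells (median 1832), where 3 cells would make 1.69%. At day 7 the untreated graft had CXCL10 at 302 CPM in the whole library, against 4362.

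**Figure D4:**
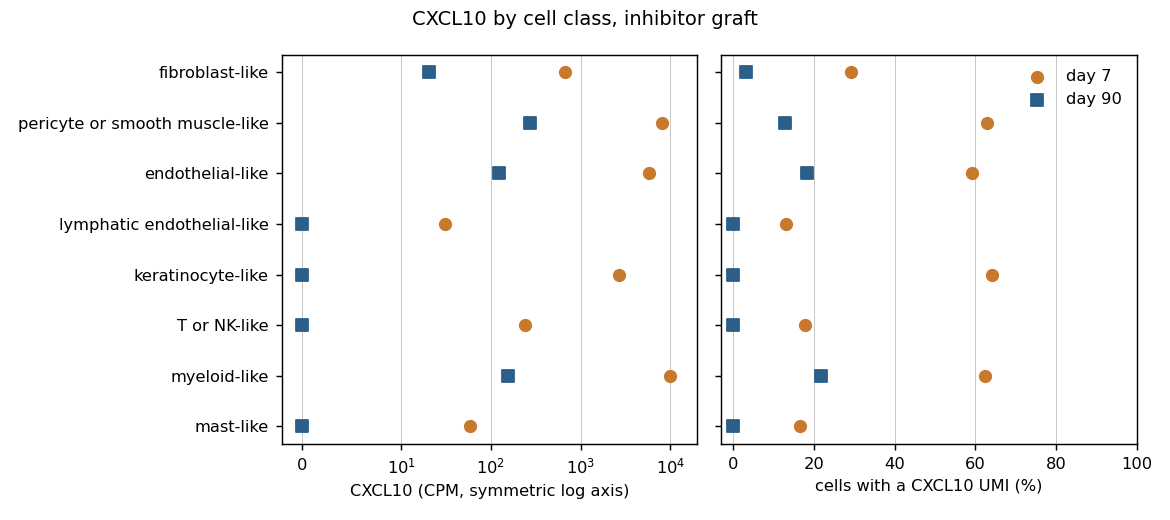
CXCL10 in 8 cell classes of the inhibitor graft at day 7 (orange circles) and day 90 (blue squares), as CPM of the class sum on a symmetric log axis (left) and as the share of cells with a UMI (right, %). Every class is lower at day 90, and 4 classes stand at 0. Mast-like and lymphatic endothelial-like cells lie under the class floor, a mean of 50 CPM.

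Immediate early genes, mostly of transcription factors, respond within minutes to stimuli including tissue digestion. They were higher for 10 of 16 and lower for 1, FOSL1, in the whole library (median 1.20, untreated 0.87). KLF4, a zinc-finger factor, was at 131 CPM at day 7 and 679.9 CPM at day 90 and FOSB, an AP-1 subunit, at 188 CPM at day 7 and 951 CPM at day 90. Their median was positive in all 8 classes, from 0.88 in fibroblast-like to 2.24 in mast-like cells, and the part of digestion was not tested. In cells thinned to 2000 UMIs, KLF4 was detected in 17.5% and 60.3% of cells. Among 16 glycolysis and hypoxia genes 3 were lower, with LDHA, a lactate dehydrogenase subunit, from 329 to 129.7 CPM.

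**Figure D5:**
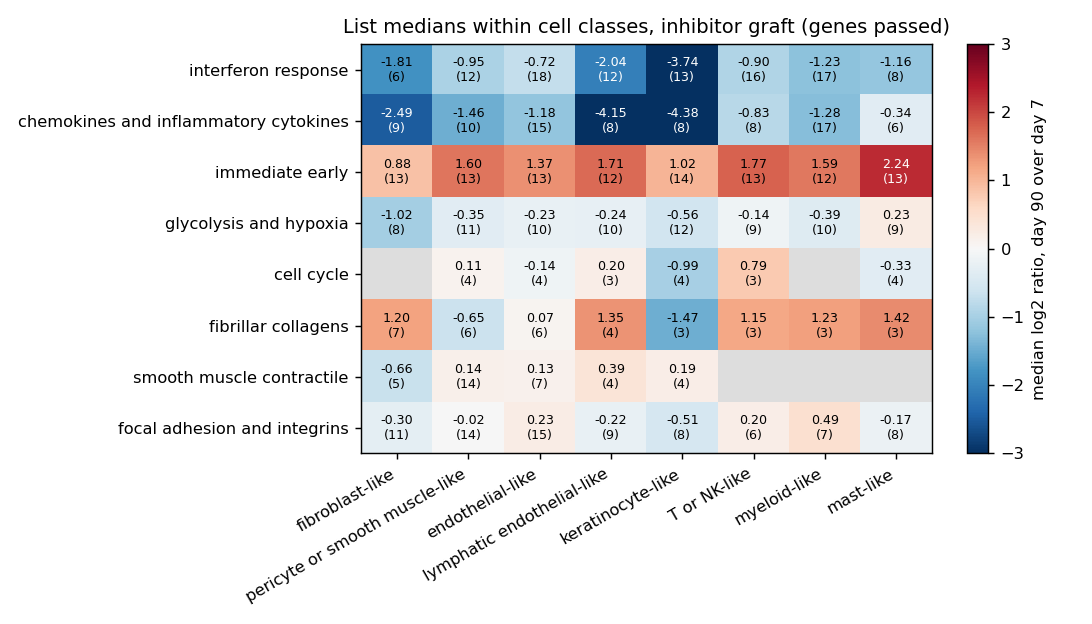
Median log2 ratio, day 90 over day 7, of 8 gene lists within 8 cell classes of the inhibitor graft, with the number of genes at 50 CPM or more in brackets; grey cells had under 3 such genes and colours saturate at 3. Interferon genes are below 0 in each class, from -0.72 in endothelial-like to -3.74 in keratinocyte-like cells, and immediate early genes above 0 in each.

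Interferon response medians were below 0 in all 8 classes. In the untreated graft the same list stood at -1.80 in fibroblast-like, -0.06 in endothelial-like and 0.04 in myeloid-like cells, each over the members that passed there. Of the fibrillar collagens COL1A1, COL1A2 and COL3A1, all 3 were higher also in mast-like cells (median 1.42), and 2 of 3 in T or NK-like (1.15) and myeloid-like cells (1.23), where COL3A1 was within 2-fold. In keratinocyte-like cells 2 of the 3 were lower (median -1.47), COL1A2 from 257 to 68.2 CPM and COL3A1 from 165 to 59.3 CPM. COL1A1 in mast-like cells was at 67.9 and 215 CPM, against 27359 and 112723 in fibroblast-like cells, and the part of free RNA was not tested.

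Per-cell detection was counted on the same cells as the sums, so it is no separate support for genes picked by those sums. In cells thinned to 2000 UMIs, leaving out 1788 shallower cells at day 7 and 283 at day 90, the share of cells with a UMI was higher at day 90 for 767 of the 770 higher genes and lower for 390 of the 391 lower genes. Of 6969 genes, 683 had a 2-fold higher share and 257 a 2-fold lower share at that depth, against 1318 and 109 without thinning.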

How the data were processed

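The deposited matrices hold whole-number counts of UMIs per gene and cell barcode, made by the authors with Cell Ranger from 10x 3' v3 libraries, per the labels and the submitters' processing notes. The notes also name Seurat 3.1.1. Aligner version, genome build and annotation are not given in the sources used here. Identifiers without a symbol held 17.5% of UMIs at day 7 and 14.7% at day 90 and stayed in the CPM denominator.

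Cells with at least 500 genes were kept (9386 and 3829), without a mitochondrial filter for whole-library sums. For classes, cells over 25% mitochondrial UMIs were left out, and Scrublet in Scanpy 1.11.5 ranked doublets. Its automatic threshold called 1 and 3 cells, so the top-scoring 700 and 116 were removed at 0.8% per 1000 cells. All 5 libraries were clustered without integration (2000 variable genes, 30 components, 20 neighbours, Leiden resolution 1), and clusters were named from 16 marker lists, 2 staying unnamed. UMIs were summed per library or class. Genes past 2-fold were called at a mean of 10 CPM (50 CPM within classes, 50 cells per day). Ratios have exact conditional binomial intervals and shares exact Clopper-Pearson ones. Ratios against fewer than 3 UMIs used a floor of 3 counts, and no fold is printed against 1 or 2 UMIs. TMM scaling came from edgeR 4.0.16. The whole-library ratio, the 2-fold rule and the ratio interval were tested on simulated counts. Clustering and class naming were not part of that test. Python 3.11.15, NumPy 2.4.6, SciPy 1.17.1 and pandas 2.3.3 were used.

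The genes, lists (39) and markers were chosen with earlier results of these data known. Named genes were the 15 highest and 15 lowest at a mean of 50 CPM, up to 4 leading and 2 opposite members of each list, PTK2, and the 8 highest and 8 lowest within each class among genes at 20% or more of their highest class level. Other genes named were chosen after their values were seen. The barcode and thinning alternatives were also chosen after seeing the data. Promoter sequences were not used here, and some genes that met the rules are not reported here.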

Additional observations from a re-analysis of the deposited data

Results flagged for a closer look

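Among the genes named by rule, 6 were at least 2-fold higher at one day in the inhibitor graft and at least 2-fold lower at that day in the untreated graft. Over all genes tested in both grafts, 5 were 2-fold higher at day 90 in the inhibitor graft and 2-fold lower in the untreated graft, and 6 the reverse. With 1 library per group the difference was not tested. HPS5 had a log2 ratio of -6.79 in the inhibitor graft and 2.42 in the untreated graft, where it was at 107 and 569 CPM. IL11 had -5.55 and 1.12, and MMP13 had -8.29 and 2.93, with MMP13 at 16.7 and 127 CPM in the untreated graft. The keratins went the other way in these whole-library sums. KRT15 had 1.41 in the inhibitor graft and -2.36 in the untreated graft, KRT10 had 1.56 and -2.28, and KRT1 had 1.22 and -3.66. Keratinocyte-like cells were 4.13% and 1.76% of the inhibitor graft and 6.23% and 0.520% of the untreated graft. Within these cells KRT15, KRT10 and KRT1 were higher at day 90 in both grafts. Their log2 ratios were 3.09, 3.71 and 2.76 in the inhibitor graft. In the untreated graft, with 28 such cells at day 90, they were 1.73, 0.83 and 0.60. Without cells of shared barcodes the inhibitor ratio of KRT15 was 0.64.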

How the results depend on the processing

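No paired analysis was possible because each group is 1 library and the labels give no replicate numbers. Leaving out a replicate was likewise not possible. Of 6969 genes, the main rule called 770 higher and 391 lower. TMM scaling gave 651 lower, a floor of 50 CPM 204 higher and 173 lower, no floor 2593 and 1123, and a 1.5-fold rule 1679 and 1040. Without thinning, 1318 genes had a 2-fold higher and 109 a 2-fold lower share of cells with a UMI. The log2 share of pericyte or smooth muscle-like cells was 0.0668 with the inhibitor libraries clustered alone, 0.35 with doublets kept and -0.30 with at least 1000 genes. That of fibroblast-like cells was 0.19 with doublets kept and 0.15 with at least 1000 genes, where myeloid-like cells had -0.99 and mast-like cells -1.005. A floor of 10 CPM within classes, which tests more genes, gave 416 higher and 606 lower in fibroblast-like, 878 and 327 in pericyte or smooth muscle-like, 416 and 255 in endothelial-like, 846 and 712 in lymphatic endothelial-like, 738 and 832 in keratinocyte-like, 1212 and 288 in T or NK-like, 929 and 327 in myeloid-like and 1271 and 395 in mast-like cells. Clusters shared by both days, given the same weight, left 151 lower genes in fibroblast-like and 46 higher in endothelial-like cells. Signs turned in the following. With the same weight for each class, the mast cell list was at 0.11, the B and plasma cell list at 0.49, FCER1A at 0.11, LAMA3 at -0.17, KRT7 at -0.42, APLN at -0.13, KDR at -0.20, CXCR4 at 1.23 and PTGS2 at 0.24. By the mean of single-cell CPM the mast cell list was at 0.61 and FCER1A at 0.37, and with a floor of 50 CPM the dendritic cell list was at 0.52. The cartilage and tendon list of fibroblast-like cells was at -1.17 in shared clusters, and the fibrillar collagens of lymphatic endothelial-like cells at -1.46 with doublets kept. The cause of these changes was not tested. Depth limits the day-90 values of T or NK-like (53 cells, 122650 UMIs), mast-like (177 cells, 385360 UMIs), lymphatic endothelial-like (67 cells, 670302 UMIs), myeloid-like (69 cells, 744064 UMIs) and keratinocyte-like cells (65 cells, 1349694 UMIs), and the day-7 values of lymphatic endothelial-like cells (61 cells, 558394 UMIs).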

Other observations

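Some genes moved the same way in most classes. Of 1442 genes at 50 CPM or more in at least 6 of 8 classes, 21 were at least 2-fold higher at day 90 in 6 or more. Beside immediate early genes (FOS, FOSB, KLF2, KLF4, KLF10, NR4A1, NR4A2, IER5, IER5L) these included TSC22D3, a glucocorticoid-induced gene, TXNIP, an inhibitor of thioredoxin, PPP1R15A, GADD45G, BRD2, MIDN, MAPRE2, RSRP1, TOB2 and the mitochondrially encoded ND3 and COX3. The 25 genes lower in 6 or more classes included the interferon genes CXCL10, IFI6, IFITM3, PSMB9, UBE2L6 and SOCS1, the superoxide dismutase SOD2, and the secretory pathway genes SPCS3, SERP1, OSTC and MANF. ATP8 and ND4L, also mitochondrially encoded, were among the lower genes, opposite to ND3 and COX3. The median mitochondrial share was 2.95% at day 7 and 4.23% at day 90, and its part in these values was not tested.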
